A study of Mus musculus with 36 samples.

Results

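Igbp1, Yipf6, Nkap and Nsdhl are 4 of the 252 X-linked genes for which allelic transcription was measured in mouse embryonic stem cells (mESCs), and all 4 are listed in both deposited tables. They were chosen by name from values of the SMCHD1 KO and iXist-ChrX libraries at day 7, in which all 4 had a higher share of reads from the inactive X chromosome (Xi) without SMCHD1. That rise is therefore a description here, and the question was whether it recurred in lines whose libraries the choice did not use, namely the SMCHD1 mutants E147A and Y353C and the LRIF1 KO. The measure is Xi/(Xi+Xa), the fraction of allele-specific reads of a gene in chromatin-associated RNA (ChrRNA-seq, which captures RNA still bound to chromatin) that come from Xi rather than from the active X (Xa). A fraction near 0.5 is equal transcription from both chromosomes, and 0 is complete silencing of the Xi allele.

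The series holds 36 libraries from 8 lines of Cast x 129S mESCs. In all of them the promoter of the endogenous Xist on the 129S chromosome was replaced by a TetOn promoter, so that doxycycline (dox) silences the 129S X, while the Cast X stays active. The lines are iXist-ChrX, its SMCHD1 KO, Halo-SMCHD1 (a Halo-tag on endogenous SMCHD1), and 5 lines made from Halo-SMCHD1, which are E147A, Y353C, G137E and K518E, each with that SMCHD1 mutation on both alleles, and LRIF1 KO. The study also describes an eGFP-CIZ1 transgene at Rosa26, which marks Xi, in the Halo-SMCHD1 line before these 5 were made. By that description, Halo-SMCHD1 and its derivatives differ from iXist-ChrX and SMCHD1 KO by more than the tag. Halo-SMCHD1 and its 5 derivatives gave 1 uninduced library and 1 library after 24 h with dox at 1 µg/ml. Differentiation in a monolayer without feeders, under dox at 1 µg/ml, gave 3 libraries each of Halo-SMCHD1 and G137E and 2 of each other line at day 7, and 2 each of Halo-SMCHD1, G137E and K518E at day 5. Each edited line is 1 clone, so that the effect of a mutation and of its clone cannot be told apart. The p-values measure the spread between repeats of the same line and day, pooled over all lines and both days in the fit. They do not measure spread between clones of a line, and rest in part on libraries outside the comparison. The study describes the repeats as independent. The counts behind the fractions were not used here, so the depth of each value is unknown and no counting interval can be given.

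Some libraries stood apart. The day-7 median over all genes was lowest in Halo-SMCHD1 replicate 1, at 0.0198 against 0.0372 and 0.0426 in replicates 2 and 3. It was 0.0526 in E147A replicate 1 and 0.101 in the E147A library whose replicate number in the table has no match in the labels. Results against Halo-SMCHD1 that turn on Halo-SMCHD1 replicate 1 or on this E147A library are given with and without them. For iXist-ChrX replicate 1, the labels say that the reads had to be recovered from aligned files. Xist itself, the RNA that coats Xi, was at 0.881 to 0.995 uninduced and at 0.997 or more in each induced library.

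X chromosome inactivation starts when Xist spreads over the chromosome and recruits silencing factors, and it is stabilised later by proteins such as SMCHD1. SMCHD1 is an SMC-family protein with a GHKL ATPase domain, is enriched on Xi, and is needed to keep a subset of genes silent. LRIF1 binds SMCHD1 and contributes to its recruitment. The 4 genes serve unrelated cell functions. Igbp1 encodes the alpha4 protein, which binds the catalytic subunits of protein phosphatases. Yipf6 encodes a Golgi membrane protein of the Yip family. Nkap encodes a nuclear protein that acts in transcriptional repression and RNA splicing. Nsdhl encodes a sterol dehydrogenase of cholesterol synthesis.

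All 4 are protein-coding genes on the plus strand of the X chromosome, but they do not form a cluster. In RefSeq (GRCm38, the sequence of mm10) they span chrX:37126763-37150746 for Nkap, chrX:72918521-72958528 for Nsdhl, chrX:98936316-98949021 for Yipf6 and chrX:100494291-100516125 for Igbp1. By the start positions of the deposited tables, Nsdhl lies 35.8 Mb from Nkap, Yipf6 26.0 Mb from Nsdhl and Igbp1 1.56 Mb from Yipf6. Igbp1 starts 2.99 Mb and Yipf6 4.55 Mb from the Xist promoter, on its centromeric side. The annotation also lists the autosomal genes Igbp1b and Nkapl, whose reads could be confused with those of Igbp1 and Nkap. Only unique alignments were kept by the authors, and the part of such reads in the values was not tested.

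The promoters are shown because CpG-rich promoters are where DNA methylation is laid down on Xi, and because the 4 genes were grouped by a shared change. The windows hold the bases from 250 to 21 upstream of the RefSeq start (GRCm38.p6, plus strand; for Yipf6 the start used lies inside the span given above, which begins at an earlier alternative start), with each CG in capitals, at chrX:100494041-100494270, chrX:98937531-98937760, chrX:37126513-37126742 and chrX:72918271-72918500.
Igbp1: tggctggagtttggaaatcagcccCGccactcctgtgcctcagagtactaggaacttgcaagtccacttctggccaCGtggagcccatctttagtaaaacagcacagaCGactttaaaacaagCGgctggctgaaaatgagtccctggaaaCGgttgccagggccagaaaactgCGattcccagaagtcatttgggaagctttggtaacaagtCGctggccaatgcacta
Yipf6: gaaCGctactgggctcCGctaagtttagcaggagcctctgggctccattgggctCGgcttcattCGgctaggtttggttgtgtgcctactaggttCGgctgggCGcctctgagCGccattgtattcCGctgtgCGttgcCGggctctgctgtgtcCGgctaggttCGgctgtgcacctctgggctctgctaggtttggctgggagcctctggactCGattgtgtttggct
Nkap: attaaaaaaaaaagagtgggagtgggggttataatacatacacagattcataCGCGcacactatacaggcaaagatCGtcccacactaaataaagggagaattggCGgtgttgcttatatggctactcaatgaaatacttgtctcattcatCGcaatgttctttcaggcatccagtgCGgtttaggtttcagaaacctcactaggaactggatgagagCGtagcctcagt
Nsdhl: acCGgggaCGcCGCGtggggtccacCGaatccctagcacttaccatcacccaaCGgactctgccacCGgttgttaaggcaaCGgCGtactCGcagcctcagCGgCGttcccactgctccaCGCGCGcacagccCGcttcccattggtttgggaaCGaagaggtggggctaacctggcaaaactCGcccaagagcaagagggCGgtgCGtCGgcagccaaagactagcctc
The windows differ in CpG content. They hold 7 CG in Igbp1, 13 in Yipf6, 7 in Nkap and 21 in Nsdhl, where the median is 11 over the 201 genes of the main table that have a RefSeq window and 5 over all 32851 mouse promoters. The Nsdhl window has as many CG as or more than 91.0% of the windows of table genes, and the windows of Igbp1 and Nkap as many as or more than 29.9%. The letters CCAAT, read on either strand, occur in all 4 windows and in 43.3% of those of table genes. GGGCGG and ATGGCG, which each contain a CG, were also read on both strands. GGGCGG occurs in Nsdhl and in 50.7% of table genes, and ATGGCG in Yipf6 and in 11.4% of table genes.

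Before induction of Xist both alleles of each gene were transcribed at about the same level. Over the 6 lines, Xi/(Xi+Xa) was 0.516 to 0.543 for Igbp1, 0.488 to 0.528 for Yipf6, 0.458 to 0.521 for Nkap and 0.487 to 0.535 for Nsdhl, with a median over all genes of 0.514 to 0.524. No member stood apart from the bulk of the X at this stage, and none ranked higher than 90 in any uninduced library when genes were ordered from the highest fraction.

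After 24 h with dox, the fraction of Nkap had fallen less than that of the median gene in each line, and that of Nsdhl by about as much as the median gene or more. Relative to the uninduced library of the same line, 70.8 to 88.0% of the Xi/(Xi+Xa) of Nkap was left over the 6 lines, which is a ratio of fractions and not the share of Xi transcription left. The values were 63.0 to 72.4% for Igbp1, 53.9 to 74.4% for Yipf6 and 36.9 to 47.0% for Nsdhl, against 40.5 to 53.2% for the median over all genes. In fractions, Nkap was at 0.369 in Halo-SMCHD1, 0.409 in E147A, 0.403 in Y353C, 0.389 in LRIF1 KO, 0.408 in G137E and 0.355 in K518E. Each line has 1 library at this stage, so that no difference between lines was tested.

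**Figure D1:**
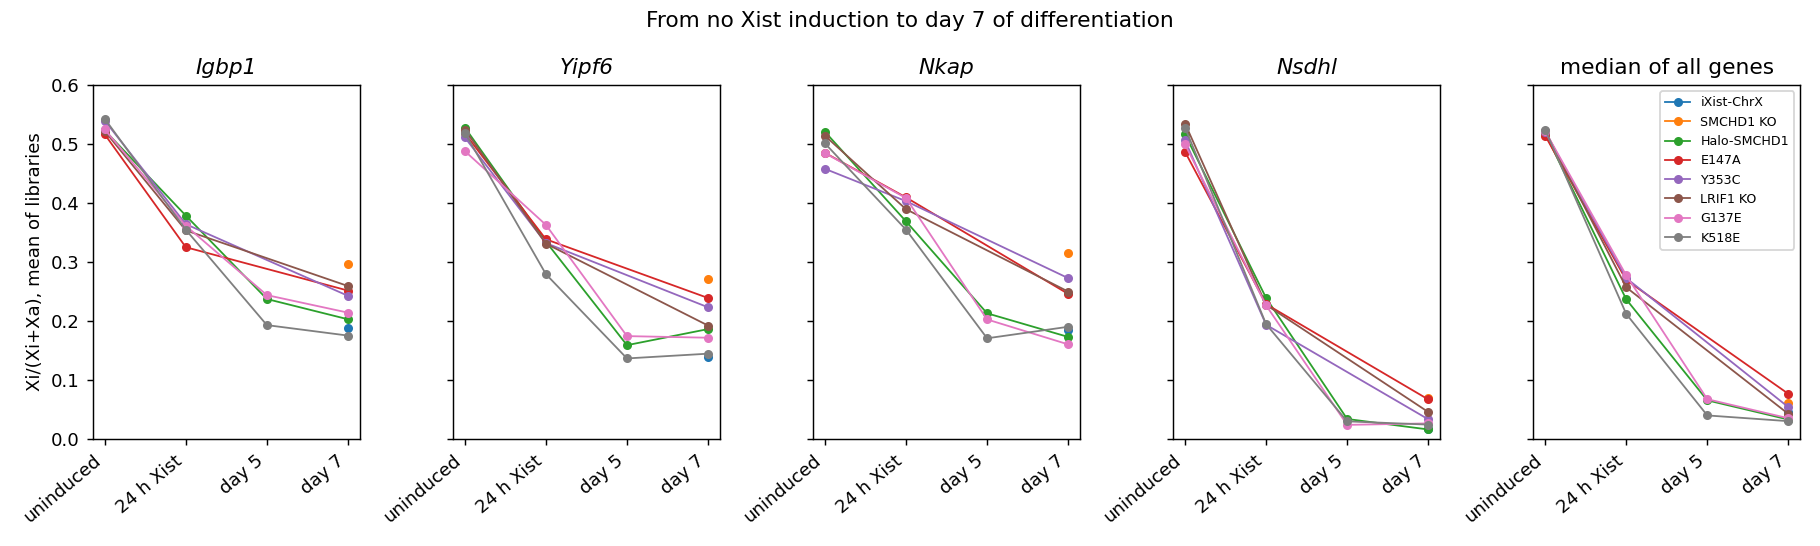
Mean Xi/(Xi+Xa) (y axis, fraction) of Igbp1, Yipf6, Nkap and Nsdhl and the median over all genes, by stage (x axis), with 1 coloured line per cell line. Uninduced and 24 h points are single libraries, and day 5 and day 7 points are means of 2 or 3. Igbp1, Yipf6 and Nkap stay above the median of all genes from 24 h on, while Nsdhl follows it down.

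At day 7 Igbp1, Yipf6 and Nkap were still among the least silenced genes in each library, whereas Nsdhl was near or below the median of the library in most. Ordered from the highest fraction, Nkap ranked 8 to 30, Igbp1 12 to 25 and Yipf6 14 to 47 over the 18 day-7 libraries, in tables of 249 and 242 genes. Nsdhl ranked 93 to 219, and was above the library median in both SMCHD1 KO libraries and in replicate 1 of E147A, replicate 1 of LRIF1 KO and replicate 2 of G137E. Over the same libraries the median was 0.220 for Igbp1, 0.192 for Yipf6, 0.194 for Nkap and 0.0323 for Nsdhl, and that of the library medians was 0.0443.

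In SMCHD1 KO, the comparison that selected the genes, all 4 were higher in both KO libraries than in both iXist-ChrX libraries, as were 27.7% of the 249 genes. Igbp1 was 0.279 and 0.314 in SMCHD1 KO replicates 1 and 2 and 0.210 and 0.166 in iXist-ChrX replicates 1 and 2. Yipf6 was 0.255 and 0.288 in SMCHD1 KO and 0.180 and 0.0990 in iXist-ChrX. Nkap was 0.275 and 0.356 in SMCHD1 KO and 0.198 and 0.173 in iXist-ChrX. SMCHD1 KO replicate 2 was the higher KO library for each of these 3 genes, and iXist-ChrX replicate 1 the higher control. Nsdhl started from a lower level, at 0.0573 and 0.0820 in SMCHD1 KO and 0.0216 and 0.0135 in iXist-ChrX. The mean differences were 0.132 for Yipf6, 0.130 for Nkap, 0.109 for Igbp1 and 0.0521 for Nsdhl, which ranked 5, 6, 9 and 32 of 249 genes. On the log2 odds scale Nsdhl moved from last to first of the 4, with Nsdhl at rank 13, Yipf6 at 21, Nkap at 34 and Igbp1 at 47. The rule names genes and has no threshold, so that no gene lies just outside it.

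Halo-SMCHD1, the control of the mutants, overlapped with iXist-ChrX for each of the 4 genes, where 2.01% of genes were higher in each Halo-SMCHD1 library and 25.3% were lower. Over all genes Halo-SMCHD1 was at a median of -0.36 in log2 odds from iXist-ChrX. In Halo-SMCHD1 replicates 1, 2 and 3, Igbp1 was 0.191, 0.195 and 0.223, and Yipf6 was 0.175, 0.189 and 0.195. Nkap was 0.156, 0.186 and 0.177, and Nsdhl was 0.00637, 0.0321 and 0.0106. The spread was small for the first 3 genes, and for Nsdhl replicate 2 was the highest library by a wide margin. With Halo-SMCHD1 in place of iXist-ChrX as the control of SMCHD1 KO, the mean difference was 0.0852 for Yipf6 instead of 0.132. The change of control went both ways over the 4 genes. The Halo-SMCHD1 mean was above that of iXist-ChrX for Yipf6 (0.186 against 0.140) and Igbp1 (0.203 against 0.188). It was below that of iXist-ChrX for Nkap (0.173 against 0.186) and Nsdhl (0.0164 against 0.0175).

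**Figure D2:**
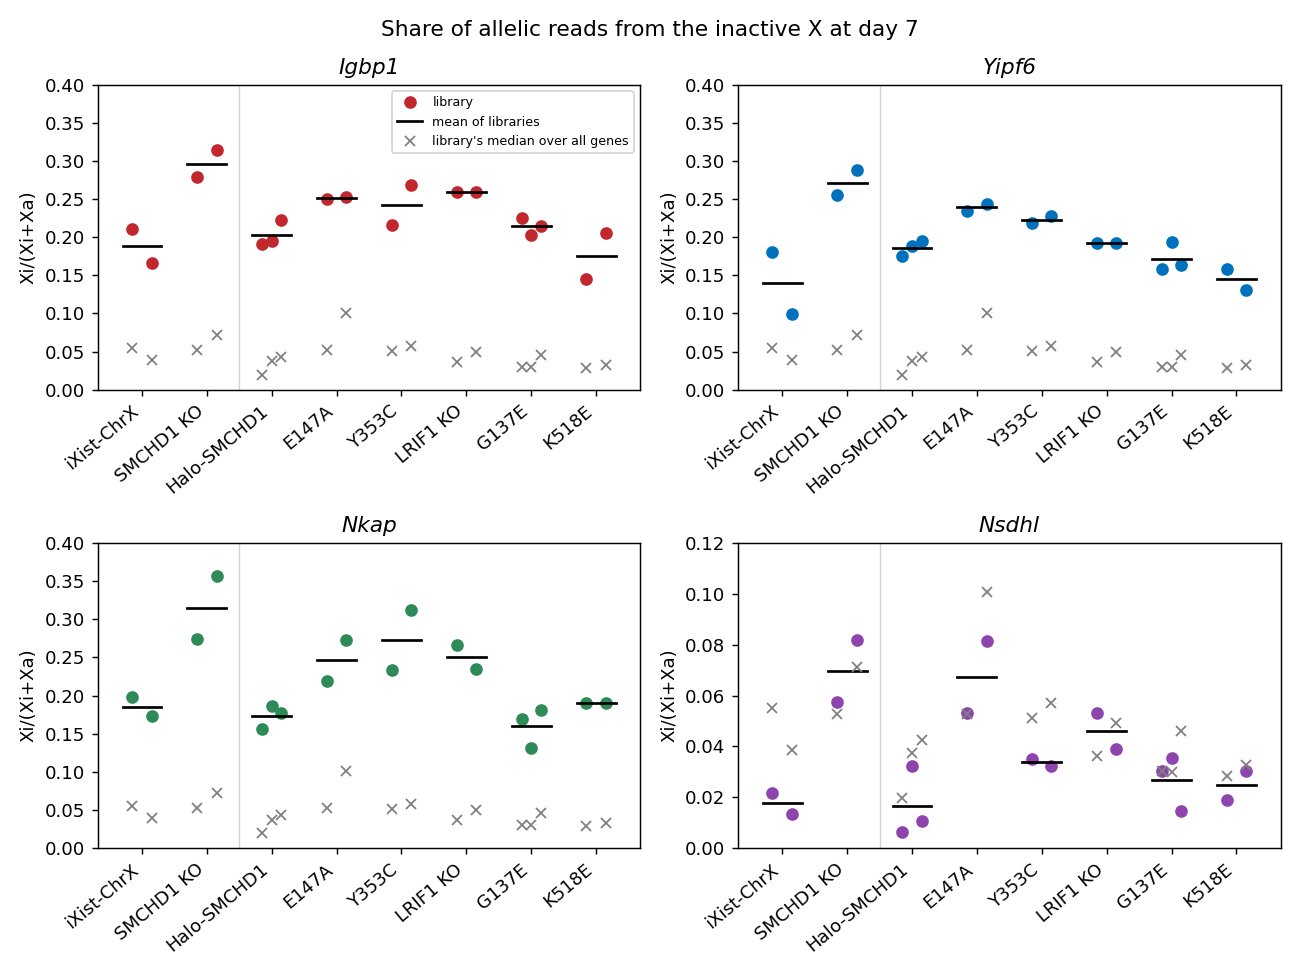
Xi/(Xi+Xa) at day 7 (y axis, fraction, with a shorter axis for Nsdhl) in each line (x axis), with 1 point per library, a bar at the mean and a grey cross at the median of the library over all genes. The 2 SMCHD1 KO libraries sit above both iXist-ChrX libraries for each gene, and the grey crosses show E147A with a library at 0.101.

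E147A abolishes ATP hydrolysis by SMCHD1. In E147A, each of the 4 genes was higher in both libraries than in each of the 3 Halo-SMCHD1 libraries, in a comparison in which 46.2% of genes were. Igbp1 was 0.251 and 0.253 in E147A, in the order replicate 1 and library without a matched number. Yipf6 was 0.234 and 0.244. These pairs were close to each other although the medians of the libraries were not. Nkap was 0.219 and 0.273, and Nsdhl was 0.0530 and 0.0815, both higher in the library without a matched number.

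Of the 4, Nsdhl alone passed the test in E147A (limma on log2 odds, all differentiated libraries of the table in 1 fit, Benjamini-Hochberg adjustment over all genes, threshold 0.05), as did 16.1% of genes in this direction. Those are 40 genes, and the number was 10 without Halo-SMCHD1 replicate 1, 3 without the unmatched E147A library and 88 without E147A replicate 1. Nsdhl went from 0.0164 ± 0.0138 (SD, n = 3) to 0.0673 ± 0.0201 (SD, n = 2), a difference of 1.72 in log2 odds (SE 0.40, limma adjusted p = 0.0152), against a median of 0.87 over all genes. The differences of the others were 0.61 for Nkap (SE 0.26, limma adjusted p = 0.0984), 0.44 for Yipf6 (SE 0.26, adjusted p = 0.2) and 0.39 for Igbp1 (SE 0.21, adjusted p = 0.167), all below the median of all genes on this scale. In fractions their differences were 0.0729, 0.0527 and 0.0486, above the median of 0.0368 over all genes, at ranks 47, 85 and 97 of 249. The call for Nsdhl was lost without Halo-SMCHD1 replicate 1 (limma adjusted p = 0.0605) and in a fit of only the libraries compared (adjusted p = 0.236). It was also lost without the unmatched E147A library (a difference of 1.43) and with the replicate number as a block (1.26). The unmatched library forms a block of its own, so both of these fits rest on E147A replicate 1 alone. The replicate numbers did not pair the libraries. In log2 odds relative to the median of each library, the difference of Nsdhl was 0.67 (limma adjusted p = 0.469). Those of Igbp1, Yipf6 and Nkap turned to -0.67, -0.62 and -0.44. In fractions these 3 did not turn. Igbp1 lay on average 0.175 above the library median in E147A and 0.170 in Halo-SMCHD1, Yipf6 0.162 and 0.153, and Nkap 0.169 and 0.140.

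Y353C is a disease mutation that also impairs the ATPase of SMCHD1. In Y353C replicates 1 and 2, Nkap was 0.234 and 0.312, above each Halo-SMCHD1 library. Yipf6 was 0.219 and 0.228 and Nsdhl 0.0348 and 0.0324, both also above each Halo-SMCHD1 library, though for Nsdhl the highest control library was at 0.0321. Igbp1 was 0.217 and 0.269, and its lower library fell below Halo-SMCHD1 replicate 3. Thus 3 of the 4 genes were higher in both libraries, where 42.2% of all genes were. The mean difference of Nkap, 0.0996, was the third highest of the 249 genes, but in log2 odds, the scale of the test, it ranked 78, at 0.80 (SE 0.26, limma adjusted p = 0.161). None of the 4 passed the test, against 3.61% of genes (9 genes, and 0 or 1 without Y353C replicate 2, Y353C replicate 1 or Halo-SMCHD1 replicate 1). The log2 odds differences were 0.87 for Nsdhl (SE 0.40, adjusted p = 0.253) and 0.32 for both Yipf6 (SE 0.26, adjusted p = 0.49) and Igbp1 (SE 0.21, adjusted p = 0.407). The median over all genes was 0.52. In log2 odds relative to the library medians, Igbp1 and Yipf6 were lower in Y353C, with a difference of -0.33 for each. Those of Nkap and Nsdhl were 0.16 and 0.23 (limma adjusted p = 0.857 for both). In fractions, Igbp1 lay on average 0.189 above the library median in Y353C and 0.170 in Halo-SMCHD1. For Yipf6 it was 0.169 and 0.153, so the direction for these 2 genes depended on the scale. Without Y353C replicate 2 the difference was 0.12 for Igbp1 and 0.52 for Nkap, and without Y353C replicate 1 it was 0.51 and 1.08.

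In LRIF1 KO, Yipf6 differed from the other 3 genes in its values against Halo-SMCHD1, and the difference between genes was not tested. Igbp1 was 0.260 and 0.259 in LRIF1 KO replicates 1 and 2, Nkap 0.266 and 0.234, and Nsdhl 0.0531 and 0.0388, each above each Halo-SMCHD1 library, as were 21.3% of all genes. Yipf6 was 0.193 and 0.192, within the range of Halo-SMCHD1. The mean difference of Nkap, 0.0768, was the fifth highest of the 249 genes, and that of Igbp1, 0.0563, ranked 16, but in log2 odds Nkap ranked 63 and Igbp1 94, behind Nsdhl at 20. No gene of the table passed the test in LRIF1 KO (limma, 0.0% of genes higher at adjusted p under 0.05), while 28 genes had an unadjusted p under 0.05, 25 of them higher. In log2 odds the differences were 1.24 for Nsdhl (SE 0.40, limma adjusted p = 0.248), 0.65 for Nkap (SE 0.26, adjusted p = 0.38), 0.45 for Igbp1 (SE 0.21, adjusted p = 0.435) and 0.06 for Yipf6 (SE 0.26, adjusted p = 0.971), with a median of 0.26 over all genes. With library medians subtracted the differences were 0.91 for Nsdhl, 0.31 for Nkap, 0.11 for Igbp1 and -0.28 for Yipf6. With iXist-ChrX as the control they were 1.07 for Nsdhl, 0.53 for Nkap, 0.58 for Igbp1 and 0.58 for Yipf6, so Yipf6 did not stand apart from Igbp1 and Nkap there.

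The 3 comparisons share their Halo-SMCHD1 libraries, so their values are given side by side and not as independent repeats. Nkap was 0.0729, 0.0996 and 0.0768 higher in E147A, Y353C and LRIF1 KO. The corresponding values were 0.0486, 0.0397 and 0.0563 for Igbp1, 0.0527, 0.0369 and 0.00600 for Yipf6, and 0.0509, 0.0172 and 0.0296 for Nsdhl. For Nkap and Nsdhl all 6 libraries of these lines lay above the 3 of Halo-SMCHD1, as for 15.7% of genes. In a contrast of the mean of the 3 lines with Halo-SMCHD1, Nsdhl passed the test (1.28 in log2 odds, SE 0.31, limma adjusted p = 0.0231) where 8.03% of genes passed (20 genes, and 10 without Halo-SMCHD1 replicate 1, 13 without LRIF1 KO replicate 2 and 42 without E147A replicate 1). Nkap (0.69, SE 0.20, limma adjusted p = 0.0507), Igbp1 (0.38, SE 0.16, adjusted p = 0.132) and Yipf6 (0.27, SE 0.20, adjusted p = 0.355) did not pass. Without Halo-SMCHD1 replicate 1 the adjusted p was 0.128 for Nsdhl and 0.174 for Nkap, and without the unmatched E147A library it was 0.0578 and 0.112. The call for Nsdhl was also lost without Halo-SMCHD1 replicate 3 (limma adjusted p = 0.0691), in a fit of only the libraries compared (0.096) and with the replicate block (0.0865). With library medians subtracted, the difference was 0.01 for Nkap and 0.60 for Nsdhl (adjusted p = 0.416).

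Differences between the mutants were tested directly for LRIF1 KO. Against LRIF1 KO, none of the 4 genes passed in E147A (limma adjusted p from 0.469 to 0.954, 0.803% of genes higher) or in Y353C (adjusted p = 0.986 for each, 0.803% of genes higher). That share is 2 genes in each comparison. For E147A it became 14 without E147A replicate 1 and 1 without the unmatched E147A library or LRIF1 KO replicate 2, and for Y353C 1 without LRIF1 KO replicate 1 and 0 without any 1 of the other 3 libraries. Yipf6 was higher in both E147A libraries and in both Y353C libraries than in both LRIF1 KO libraries, as were 34.5% and 29.3% of genes. In the other direction, Igbp1 was lower in both E147A libraries than in both LRIF1 KO libraries, as were 3.21% of genes, and Nsdhl was lower in both Y353C libraries, as were 2.41%. The difference of Yipf6 was 0.38 in log2 odds for E147A (SE 0.28) and 0.26 for Y353C (SE 0.28), beside medians of 0.58 and 0.19 over all genes. With library medians subtracted in log2 odds both changed sign, to -0.34 and -0.050. In fractions Yipf6 lay on average 0.162 above the library median in E147A, 0.169 in Y353C and 0.150 in LRIF1 KO. E147A was not tested against Y353C.

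**Figure D3:**
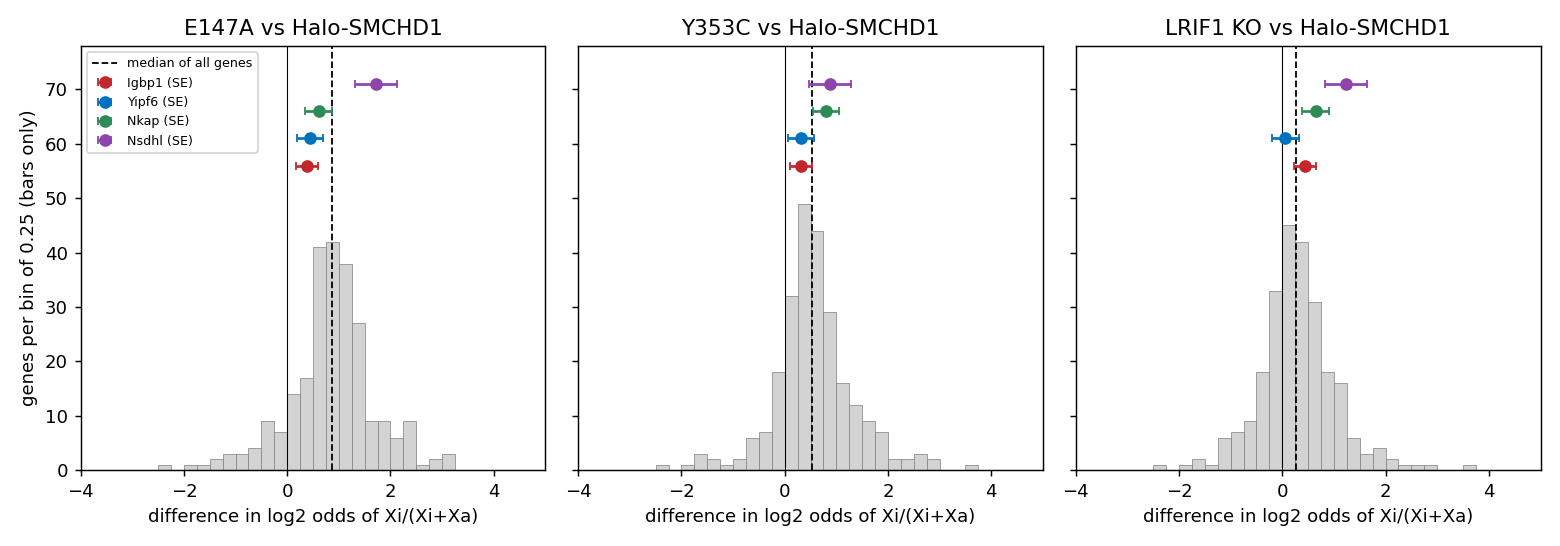
Histograms of the difference in log2 odds of Xi/(Xi+Xa) from Halo-SMCHD1 at day 7 (x axis) over the 249 genes (y axis, genes per bin), for E147A, Y353C and LRIF1 KO. Points with bars of 1 SE, placed above the histograms without a meaning in height, mark the 4 genes, and the dashed line marks the median of all genes at 0.87, 0.52 and 0.26. On this scale Nsdhl lies to the right of that line in each panel, and Yipf6 to the left. In fractions, not drawn, Nsdhl was below the median of all genes in Y353C (0.0172 against 0.0181) and above it in E147A and LRIF1 KO. Yipf6 was above it in E147A (0.0527 against 0.0368) and Y353C (0.0369 against 0.0181) and below it in LRIF1 KO.

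G137E and K518E were compared in the table of 242 genes. At day 7, G137E overlapped with Halo-SMCHD1 for all 4 genes, where 3.31% of genes were higher in each G137E library. Nkap was 0.170, 0.131 and 0.181 in G137E replicates 1, 2 and 3, which average to 0.161 ± 0.0263 (SD, n = 3), and Halo-SMCHD1 averaged 0.173 ± 0.0151 (SD, n = 3). Igbp1 was 0.214 on average, Yipf6 0.172 and Nsdhl 0.0267. No gene passed the test in this direction (limma, 0.0% of genes; 20 genes had an unadjusted p under 0.05, 13 of them higher), and the adjusted p of the 4 genes ran from 0.844 to 0.963.

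In K518E the 4 genes did not move together. At day 7 Yipf6 was 0.159 and 0.131 in K518E replicates 1 and 2, below each Halo-SMCHD1 library, as were 10.3% of genes, and Nkap was 0.191 and 0.190, above each of them, as were 7.44%. Igbp1 was 0.145 and 0.206 and Nsdhl 0.0188 and 0.0304, both overlapping with Halo-SMCHD1. No gene passed the test higher (limma, 0.0% of genes; 12 genes had an unadjusted p under 0.05, 8 of them higher), and the adjusted p of the 4 genes ran from 0.893 to 0.924.

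At day 5, Igbp1, Yipf6 and Nkap were lower in both K518E libraries than in both Halo-SMCHD1 libraries, as were 60.7% of the 242 genes. Igbp1 was 0.199 and 0.187 in K518E and 0.260 and 0.214 in Halo-SMCHD1. Nkap was 0.161 and 0.181 in K518E and 0.203 and 0.223 in Halo-SMCHD1. Yipf6 was 0.126 and 0.148 against 0.164 and 0.154. The median difference over all genes was -0.46 in log2 odds, and those of Nkap, Igbp1 and Yipf6 were -0.38, -0.36 and -0.25. Leaving out 1 library gave -0.54 to -0.18 for Igbp1 and -0.37 to -0.12 for Yipf6. With library medians subtracted in log2 odds the direction turned, with differences of 0.23 for Nkap, 0.25 for Igbp1, 0.37 for Yipf6 and 0.48 for Nsdhl (limma adjusted p = 0.857 for each). In fractions above the library median, Igbp1 (0.153 against 0.172) and Nkap (0.131 against 0.147) stayed lower in K518E. Yipf6 (0.0965 against 0.0934) and Nsdhl (-0.0100 against -0.0316) were higher. Nsdhl was 0.0322 and 0.0281 in K518E and 0.0403 and 0.0279 in Halo-SMCHD1, and overlapped. No gene passed the test lower (limma, 0.0% of genes; 31 genes had an unadjusted p under 0.05, 2 of them higher), and the adjusted p of the 4 genes ran from 0.376 to 0.882.

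Ordered by mean over the 8 lines at day 7, SMCHD1 KO was the highest for each of the 4 genes, as the choice of genes favours. For Igbp1 it was followed by LRIF1 KO (0.259), E147A (0.252) and Y353C (0.243), and then by G137E, Halo-SMCHD1, iXist-ChrX and K518E (0.175), and each line from E147A down overlapped with the next. For Yipf6 the order was E147A (0.239), Y353C (0.223), LRIF1 KO (0.192), Halo-SMCHD1 (0.186), G137E, K518E and iXist-ChrX (0.140), with overlaps from LRIF1 KO down. For Nkap, SMCHD1 KO (0.315), Y353C (0.273), LRIF1 KO and E147A (0.246) overlapped with their neighbours in the order and stood apart from the next, K518E (0.190). For Nsdhl, SMCHD1 KO (0.0697), E147A (0.0673) and LRIF1 KO (0.0459) overlapped in the same way and stood apart from Y353C (0.0336), below which each line overlapped with the next.

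Most genes around Igbp1, Yipf6 and Nkap were at lower levels than these, while Nsdhl lay among its neighbours. The 3 measured genes on each side of each member make 22 genes, and at day 7 in Halo-SMCHD1 their median Xi/(Xi+Xa) was 0.0193. Of these, 19 were at 0.104 or less, below Igbp1 (0.203), Yipf6 (0.186) and Nkap (0.173). Beside Yipf6, Stard8 was at 0.00865. Beside Nkap, Upf3b of nonsense-mediated decay was at 0.104, and 0.0349 Mb separate their starts. The 3 other neighbours are Ube2a and C330007P06Rik near Nkap, which were at 1.0 and 0.999 there and both at 1.0 before induction, and Pnma5 near Nsdhl, at 0.524. For Ube2a and C330007P06Rik the fraction therefore does not report silencing.

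In E147A, 5 of the 22 neighbours were higher in both libraries, where 46.2% of all genes were, and 1 was lower. Kif4, a kinesin 0.132 Mb from Igbp1, and Gabre, a GABA receptor subunit near Nsdhl, passed the test. Kif4 went from 0.0241 to 0.113 in E147A (limma adjusted p = 0.00164) and to 0.0815 in Y353C (limma adjusted p = 0.0161). In E147A the call for Kif4 held without any 1 library (adjusted p from 0.00514 to 0.0155), whereas in Y353C it was lost without Halo-SMCHD1 replicate 1 (0.0526) or either Y353C library (0.0748 and 0.207), and with library medians subtracted it was lost in both (0.237 and 0.469). In Y353C 5 neighbours were higher, where 42.2% of all genes were, and none lower. In LRIF1 KO 2 were higher, where 21.3% of all genes were, and 2 lower, with no call. In SMCHD1 KO 8 were higher than in iXist-ChrX, where 27.7% of all genes were, and 1 was lower.

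**Figure D4:**
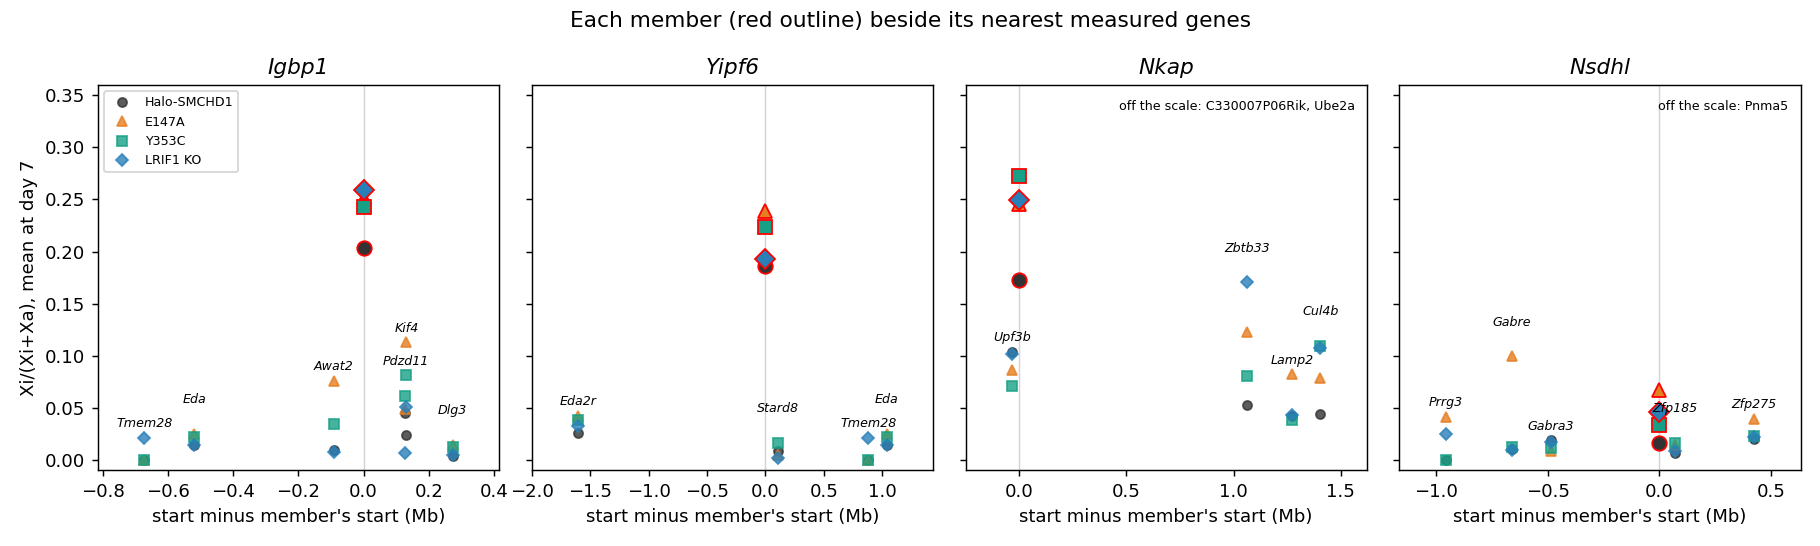
Mean Xi/(Xi+Xa) at day 7 (y axis, fraction) of each member, outlined in red, and of measured genes among the 3 on each side, by distance between starts (x axis, Mb), in Halo-SMCHD1, E147A, Y353C and LRIF1 KO. Neighbours above the scale are named in the panel. Igbp1, Yipf6 and Nkap stand above their plotted neighbours in Halo-SMCHD1, and Nsdhl lies among its own.

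The likeness of patterns was measured by Pearson's r over the 20 differentiated libraries of the main table, in log2 odds after subtraction of each library's median. The libraries share lines and medians, so r is a description, and they include the 4 SMCHD1 KO and iXist-ChrX libraries on which the members were chosen, so that r between members is in part set by that choice. Igbp1 and Yipf6 were the most alike of each other (r = 0.85). Next for Yipf6 came Taf1 of the TFIID complex (r = 0.80) and Ogt, which attaches GlcNAc to proteins (r = 0.79). Nkap was most like Taf1 (r = 0.81), Hcfc1, a transcriptional co-regulator (r = 0.77), and Igbp1 (r = 0.75). Nsdhl was most like the actin crosslinker Flna (r = 0.72), G6pdx of the pentose phosphate pathway (r = 0.66) and Kif4 (r = 0.65). The third and second for Igbp1 were Zfx (r = 0.82) and C330007P06Rik (r = 0.82), but the latter was at 0.996 or more in each of these libraries, so that its centred value only mirrors the library median, and r between Igbp1 and Zfx was 0.25 without the subtraction. Without the subtraction, a choice made after these values were seen, r between Igbp1 and Yipf6 was 0.73, and the gene most like Igbp1 was Kif4 (r = 0.85), that most like Nkap was Bcap31 (r = 0.87), and those most like Yipf6 and Nsdhl were Flna (r = 0.75) and Kif4 (r = 0.78).

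Other genes of the same functions as the 4 members, and genes known to escape X inactivation, were counted in lists beside all genes outside the 4 members. Of those 245 genes, 39 passed the test in E147A, 9 in Y353C and 0 in LRIF1 KO. No listed gene passed in Y353C or LRIF1 KO, and the difference between the lines was not tested for them. In E147A, 9 of the 13 other membrane traffic genes measured were higher in both libraries, where 111 of the 245 genes were, and 3 passed the test. In Y353C the count was also 9 of 13, where 102 of 245 were, and in LRIF1 KO 6 of 13, where 50 of 245 were. All 3 counts rest on the same Halo-SMCHD1 libraries, and 7 of the 13 were lower in each of these than in both iXist-ChrX libraries, where 63 of 245 were, and 0 were higher. In SMCHD1 KO, 6 of the 13 were higher than in iXist-ChrX and 3 were lower, where 65 and 19 of 245 were. Among those called in E147A, Bcap31, an endoplasmic reticulum export factor, went from 0.0371 ± 0.00640 (SD, n = 3) to 0.0958 ± 0.0164 (SD, n = 2, limma adjusted p = 0.0168), and Vma21, an assembly factor of the proton pump, from 0.0714 ± 0.00934 (SD, n = 3) to 0.168 ± 0.0693 (SD, n = 2, limma adjusted p = 0.0389). Of the 4 other sterol and lipid genes, Taz, which remodels cardiolipin, was called at 0.104 against 0.0194 (limma adjusted p = 0.0389). Of 21 genes of RNA processing and transcription, Rbm3, Taf1, Med14 and Las1l were called, with Taf1 at 0.170 against 0.0988 (limma adjusted p = 0.0164).

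Of the 4 other phosphatase genes, Ppp1r3f, a glycogen-targeting subunit, and the lipid phosphatase Mtmr1 were called in E147A, at 0.198 against 0.0491 and at 0.108 against 0.0330 (limma adjusted p = 0.0389 for each). Of 7 genes known to escape X inactivation, Eif2s3x, a translation initiation factor, was called at 0.301 against 0.218 (limma adjusted p = 0.0465). The 7 include Xist itself, at 0.999 in Halo-SMCHD1 at day 7. Xist overlapped with the control in each comparison counted for this list, so it added to none of the counts below. Of these 7, 6 were higher in both E147A libraries, 5 in both Y353C libraries and 2 in both LRIF1 KO libraries, where 111, 102 and 50 of 245 genes were. Against iXist-ChrX, 0 of the 7 were higher in both SMCHD1 KO libraries, where 65 of 245 genes were, and 3 were lower in each Halo-SMCHD1 library, where 63 of 245 were. These counts are not set against the members, which were chosen on that comparison. No listed gene was called lower in E147A. Of these 11 listed genes called with Kif4 and Gabre, 13 in all, 2 were called without Halo-SMCHD1 replicate 1 (Kif4 and Las1l), 1 without the unmatched E147A library (Kif4), and 0 with library medians subtracted. The median difference of each list in E147A was 1.13 for membrane traffic, 1.91 for sterols and lipids, 0.98 for RNA processing and transcription, 1.18 for phosphatases and 0.60 for the escape genes in log2 odds, beside 0.87 over all genes outside the 4 members. The median difference of the sterol and lipid list was 0.12 in SMCHD1 KO against iXist-ChrX, beside 0.26 over all genes outside the members. In Halo-SMCHD1 against iXist-ChrX it was -1.18, beside -0.37. There 2 of the 4 sterol and lipid genes were lower in each Halo-SMCHD1 library, where 63 of 245 were. The escape genes, with Xist included, were at a median of 0.218 in Halo-SMCHD1 at day 7, close to the levels of Igbp1, Yipf6 and Nkap.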

How the data were processed

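Per the study's methods, ChrRNA-seq libraries were read as pairs of 81 bases. After rRNA was filtered out by bowtie2 2.3.2, STAR (2.4.2a or 2.7.9a) mapped the reads to mm10 with SNP positions masked, and unique alignments, handled in samtools 1.16.1, were assigned to 129S (Xi) or Cast (Xa) by SNPsplit 0.4.0dev and counted by strand over genes with featureCounts. What the authors deposited is, for each gene and library, a fraction, Xi/(Xi+Xa), for genes with at least 10 reads over SNPs. Nothing was normalized between libraries or pooled. The main table has 249 genes and 30 libraries, and the table used for G137E and K518E 242 genes and 20 libraries. Their 239 common genes have identical values in the 14 common libraries. Columns of iXist-ChrX, headed by an unlabelled clone name, were taken as this line because their days and replicate numbers fit and no other columns remained.

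Here, fractions r were taken as log2((r + 0.01)/(1 - r + 0.01)) and fitted with limma 3.58.1 in R 4.3.3 over all 20 or 14 differentiated libraries of a table, with Benjamini-Hochberg adjustment over its genes. The fit was tested on 20 simulated sets in which 60 genes were shifted by 3 in log2 odds in E147A. It called 85.2% of the shifted genes, and 4.04% of its calls were false. That shift is larger than the differences of the 4 genes, and smaller shifts were not simulated. No p of the 4 genes is given for any line against iXist-ChrX, since the choice of genes used these values. The genes named are the 4 members, Xist, the 3 most alike genes and 3 neighbours on each side of each member, and listed genes called in a mutant. The members and lists were chosen with earlier results of these data known. Promoters are from RefSeq. Some genes that these rules name are not reported here.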

Additional observations from a re-analysis of the deposited data

Results flagged for a closer look

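Nkap in K518E was flagged because every library moved one way at day 5 and the opposite way at day 7. Its mean Xi/(Xi+Xa) in K518E minus that in Halo-SMCHD1 was -0.0423 at day 5 and 0.0172 at day 7. The difference between the days was not tested. The same pattern of libraries was found for 6 of 242 genes (2.48%), and limma gave an adjusted p of 0.376 at day 5 and 0.924 at day 7.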

How the results depend on the processing

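Changes in the settings are counted in genes called in either direction by limma, out of 249 or 242. For E147A against Halo-SMCHD1, 40 genes were called, and 19 with a pseudocount of 0.001, 1 in a fit of only the libraries compared, 11 with the replicate block and 1 with library medians subtracted. For Y353C, 9 were called, and 0 with only the libraries compared or with medians subtracted. For LRIF1 KO the count of 0 became 1 and for K518E at day 5 the count of 1 became 2 with only the libraries compared. For the mean of the 3 lines, 20 genes became 9 with only the libraries compared and 0 with medians subtracted. For E147A against LRIF1 KO, 2 genes became 1 with a pseudocount of 0.05, untransformed fractions, genes at 0.25 to 0.75 uninduced or medians subtracted, and 0 with only the libraries compared. For Y353C against LRIF1 KO, 2 genes became 1 with a pseudocount of 0.001 and 0 with medians subtracted, the replicate block, a fit of only the libraries compared or untransformed fractions.

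Leaving out 1 library at a time gave 3 to 88 genes for E147A (3 without the unmatched library, 10 without Halo-SMCHD1 replicate 1, 88 without E147A replicate 1), 0 to 12 for Y353C (0 without Y353C replicate 2, 1 without Y353C replicate 1 or Halo-SMCHD1 replicate 1), 0 to 1 for LRIF1 KO, 10 to 42 for the mean of the 3 lines, 1 to 2 for K518E at day 5, 1 to 14 for E147A against LRIF1 KO and 0 to 1 for Y353C against LRIF1 KO. Where an arm keeps 1 library, it is assumed to vary like the others.

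With library medians subtracted, log2 odds differences changed sign in E147A for Igbp1 (-0.67), Yipf6 (-0.62) and Nkap (-0.44), in Y353C for Igbp1 (-0.33) and Yipf6 (-0.33), in LRIF1 KO for Yipf6 (-0.28), in their mean for Igbp1 (-0.29) and Yipf6 (-0.41), in K518E at day 5 for Igbp1 (0.25), Yipf6 (0.37), Nkap (0.23) and Nsdhl (0.48), in E147A against LRIF1 KO for Yipf6 (-0.34) and Nsdhl (-0.24), and in Y353C against LRIF1 KO for Yipf6 (-0.050) and Nkap (-0.16). With iXist-ChrX as the control, for which no p is given, Yipf6 in G137E changed sign (0.38). With that control Yipf6 was at 0.96 in E147A, 0.84 in Y353C and 0.58 in LRIF1 KO. Without 1 library, small differences that had not been called changed sign for Nkap in G137E (-0.24 to 0.024), Igbp1 in K518E at day 7 (-0.56 to 0.030), Nsdhl in K518E at day 5 (-0.34 to 0.084), Nkap in E147A against LRIF1 KO (-0.24 to 0.17), and Igbp1 (-0.33 to 0.069) and Nkap (-0.12 to 0.43) in Y353C against LRIF1 KO. The causes were not tested.

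The replicate numbers did not pair the libraries, since the correlations of deviations between same-numbered libraries ran from -0.277 to 0.255. Of 88 values, 28 were over 0.1, but both counts include repeats. Pairs of libraries common to both deposited tables were counted in each table. Many pairs of groups also gave the same value for both replicate numbers, so that 88 is not a number of independent pairs. In the fits with the replicate block, the unmatched E147A library forms a block of its own, so that E147A rests on replicate 1 alone. With this block, Nsdhl was no longer called in E147A (1.26) or in the mean of the 3 lines (0.99, limma adjusted p = 0.0865). The block changed no other call of the 4 genes. In the mean of the 3 lines, Nsdhl was also lost with only the libraries compared (limma adjusted p = 0.096) and without Halo-SMCHD1 replicate 3 (0.0691), and Nkap was called with a pseudocount of 0.05 (0.0284), untransformed fractions (0.0283), and without E147A replicate 1 (0.0381) or Y353C replicate 1 (0.0472). Depth per gene is unknown, also for the values of Nsdhl near 0. The log2 odds differences of Nsdhl from Halo-SMCHD1 depended on the pseudocount. With 0.05 and 0.001 they were 0.90 and 2.31 in E147A, 0.38 and 1.31 in Y353C, and 0.59 and 1.76 in LRIF1 KO.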
